A study of Gallus gallus with 6 samples.

Results

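Female and male cells were compared within 6 single-cell libraries of chicken embryos, after each cell had been assigned a sex from its own transcripts. A cell was called female when WPKCI-7, a multicopy gene of the W chromosome, made up more than 30 of every 10000 of its unique molecular identifiers (UMIs, each standing for 1 captured transcript), and male when it made up 15 or fewer. Of 16304 cells kept after filtering, 15941 (97.8%) were called, 6684 as female and 9257 as male, and 363 fell between the limits. The embryos came from wild-type fertilized "Hubbard" eggs of Gallus gallus domesticus, carried no transgene or treatment, and were not sexed before collection. The nasal libraries held cells of the frontonasal prominence at HH15, HH18 and HH22 (stages of Hamburger and Hamilton), and the somite libraries held dorsal brachial tissue at HH12, HH15 and HH20. Each location and stage was 1 library, and how many embryos entered each is not given in the sources used here. Female and male cells of a library necessarily came from different embryos, so sex and embryo cannot be told apart within a library, and the 6 libraries stand as the replicates.

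In birds the female is the heterogametic sex, with 1 Z and 1 W chromosome, whereas males carry a pair of Z chromosomes. The W chromosome is small and gene-poor, and many of its genes have a related copy on the Z chromosome, a gametologue. Birds are known for having no chromosome-wide mechanism that equalizes Z-linked expression between the sexes, and the Z-linked gene DMRT1 is required for testis formation. The sexual identity of a chicken cell is largely set by its own sex chromosomes. Male cells have no W chromosome, so transcripts of W-linked genes make it possible to assign single cells of a mixed pool to a sex.

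The share of called cells that were female differed between libraries. It was 54.5% in nasal HH15 (1443 of 2649 cells), 61.3% in nasal HH18 (2642 of 4312) and 34.3% in nasal HH22 (445 of 1298). In the somite libraries it was 16.1% at HH12 (484 of 3001), 39.7% at HH15 (1166 of 2938) and 28.9% at HH20 (504 of 1743). Female cells were thus the majority in the earlier nasal libraries only, and somite HH12 had the smallest female share.

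WPKCI-7 chose the groups and is described here without a test. Its summed level was 77.1 to 131.5 UMIs per 10000 in the female cells of the 6 libraries and 1.43 to 5.44 in the male cells. The cells nearest to the limits had 30.3 to 32.0 UMIs per 10000 on the female side and 14.5 to 14.9 on the male side. A total of 117 female cells lay under 40 and 534 male cells lay over 10. Nasal HH18 alone held 265 of these male cells and 157 of the 363 uncalled cells.

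**Figure D1:**
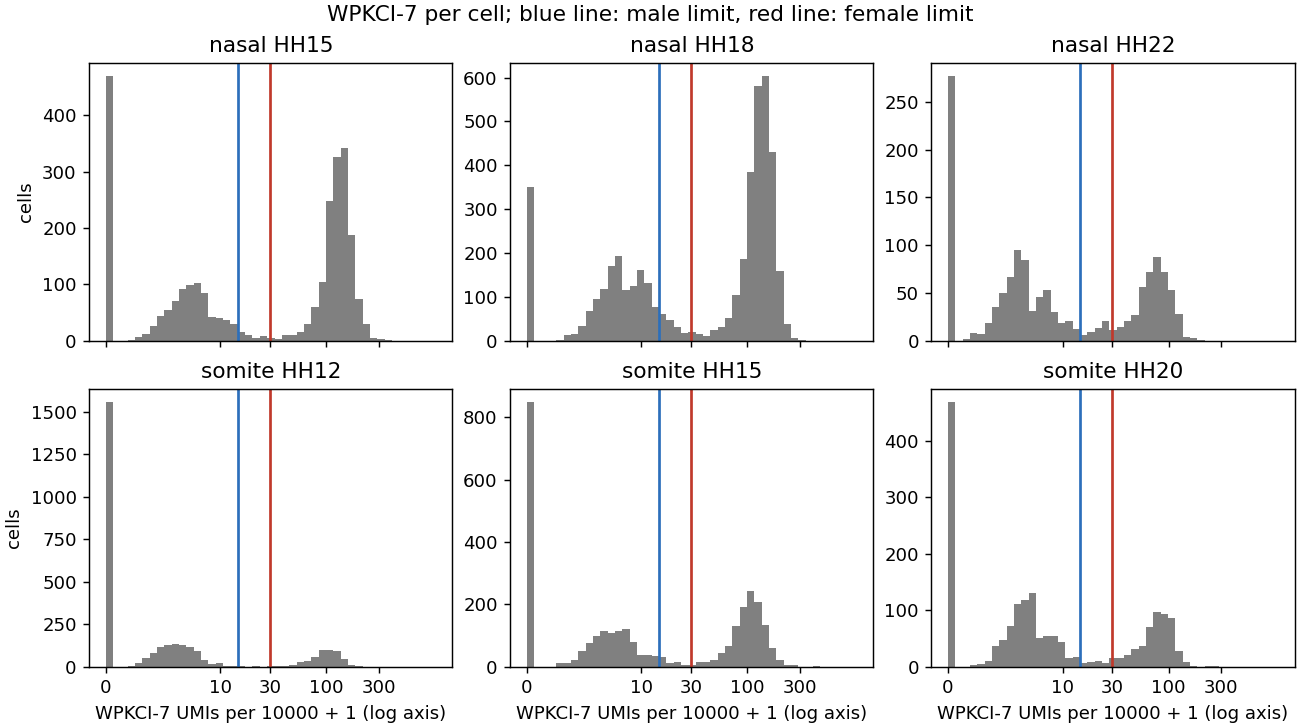
Number of cells (vertical axis) by WPKCI-7 UMIs per 10000 plus 1 (horizontal log axis), 1 panel for each library, with the male limit of 15 in blue and the female limit of 30 in red. Every library shows a low and a high mode with few cells between the limits, from 10 cells in somite HH12 to 157 in nasal HH18.

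Called cells had median depths of 2236 to 3283 UMIs in females and 2244 to 3515 in males, and the sums per library and sex ranged from 1723930 to 9358859 UMIs. Most tissue markers examined went with the labels: MEOX1, a somite gene, was at 38.0 to 351 UMIs per 1000000 (CPM) in the somite libraries and 3.79 to 5.22 in the nasal ones, ALX4, a frontonasal neural crest gene, was at 122 to 219 CPM in the nasal libraries and 5.32 to 10.8 in the somite ones, and 25 HOX genes together reached at most 1.66 CPM in nasal libraries against at least 741 in somite libraries. On the somite list, PAX3 did not separate the tissues, at 14.7 to 35.4 CPM in the nasal and 27.4 to 32.1 CPM in the somite libraries, and TBX18 reached at most 0.318 CPM in any library. A total of 169 barcodes occurred in more than 1 library.

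Other transcripts of the W chromosome, which the calls had not used, separated the groups in every library. Of the 9062 genes tested, 3 were W-linked, and all 3 were higher in female cells. The background was low: over all genes, 301 of 9062 (3.32%) passed an adjusted p of 0.05 in the quasi-likelihood test of edgeR, fitted with 1 term per library, 48 of them (0.53%) higher and 253 (2.79%) lower in females. Female and male values did not overlap for 1.22% of all genes, and for none of the 3 W-linked genes did they overlap.

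NIPBLL is the W copy of NIPBL, which loads cohesin onto chromosomes. Its level in female cells was 25.8, 26.1 and 31.2 CPM in nasal HH15, HH18 and HH22 and 19.3, 17.0 and 23.9 CPM in somite HH12, HH15 and HH20, against 0.234 to 0.733 CPM in male cells. The log2 fold change was 4.74 ± 0.21 (SE, n = 6 libraries; edgeR adjusted p = 3.5e-14). HNRNPKL, related to the RNA-binding protein HNRNPK, was at 65.2 ± 13.3 CPM in female cells and 7.42 ± 0.941 in male cells (SD, n = 6), with a log2 fold change of 3.09 ± 0.11 (edgeR adjusted p = 1.2e-14). Its male level, between 5.97 and 8.64 CPM, was the least depleted of the 3. SPIN1W, the W copy of the chromatin reader spindlin, was at 9.69 to 15.0 CPM in females, and its male sums held 11 UMIs in all, with 0 in nasal HH15 and somite HH20 (log2 fold change 4.02 ± 0.37, edgeR adjusted p = 2.4e-09).

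A further 16 tested genes had no chromosome in the annotation used but stood between or directly beside W-linked genes in the order of the deposited gene list, which follows the chromosomes. Of these, 15 were called higher in females. The most abundant, ENSGALG00000048286, was at 1002, 812 and 630 CPM in female cells of nasal HH15, HH18 and HH22 and at 896, 797 and 664 CPM in those of somite HH12, HH15 and HH20. In male cells it was at 5.87 to 18.1 CPM. Its log2 fold change of 5.89 ± 0.14 (SE, n = 6; edgeR adjusted p = 8.4e-17) was the largest of all genes tested. At the level of single cells, 86.4% of female cells (95% exact interval 85.6 to 87.2%) and 4.19% of male cells (3.79 to 4.62%) had at least 1 UMI of it, at median depths of 2747 and 2835 UMIs. Intervals cover counting error only. Male cells have no W chromosome, so their share was read as background, and the parts of free RNA and of miscalled cells in it were not tested. UBAP2, whose symbol stands for a Z-linked and a W-linked gene in the annotation, was also among the 15, at 3.99 to 11.6 CPM in females and 0 to 0.396 in males, and which copy its row counts is not resolved.

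**Figure D2:**
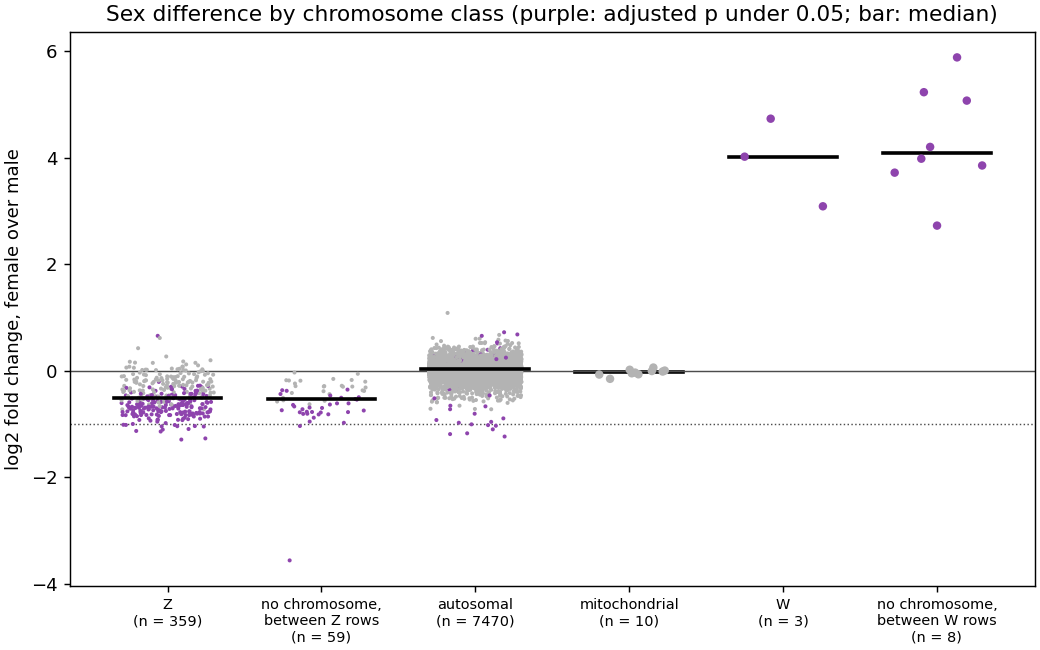
Log2 fold change of female over male cells (vertical axis) for each tested gene, grouped by chromosome class (horizontal axis), with genes at an adjusted p under 0.05 in purple, the class median as a bar and a dotted line at −1. Z-linked genes centre on −0.51 and autosomal genes on 0.02, and the 3 W-linked genes lie between 3.09 and 4.74.

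Z-linked genes made up 197 of the 301 calls. Of 359 Z-linked genes tested, 196 (54.6%) were called lower in female cells and 1 was called higher, whereas 20 of 7470 autosomal genes (0.268%) were called lower and 24 higher. The median log2 fold change was −0.51 for Z-linked genes, a female-to-male ratio of 0.703, against 0.02 for autosomal genes and 0.02 for all genes tested. None of 10 mitochondrial genes was called (median −0.03). The middle 50% of Z-linked genes had ratios between 0.611 and 0.837.

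Lower Z-linked expression was seen in every library. The median log2 ratio of Z-linked genes (CPM plus 1 in each sex) was −0.48 in nasal HH15, −0.49 in nasal HH18 and −0.47 in nasal HH22. It was −0.50, −0.52 and −0.50 in somite HH12, HH15 and HH20. The autosomal medians lay between 0.01 and 0.04. A total of 332 of the 359 Z-linked genes (92.5%) had a negative fold change, against 41.0% of autosomal genes, and 209 (58.2%) were lower in females in 6 of 6 libraries, against 1.37% of autosomal genes. Among 28 autosomes with at least 50 tested genes, the median ranged from −0.01 to 0.05.

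Summed over all Z-linked genes, UMIs amounted to 3.23 to 3.51% of the female total and 4.23 to 5.37% of the male total. Relative to autosomal UMIs, the Z-linked share of female cells was 0.643 ± 0.0328 of that of male cells (SD, n = 6), with a range of 0.611 to 0.704. The highest ratio came from nasal HH22, where 12.8% of male and 2.70% of female cells had more than 10% globin UMIs. Leaving out cells with more than 10% globin UMIs gave 0.628 ± 0.0115.

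The size of the difference varied among Z-linked genes, and few reached a ratio of 0.5, that of the Z chromosomes themselves. Only 14 of 359 had a log2 fold change below −1, 168 lay between −1 and −0.5, and 85 lay within 0.25 of 0. Split by mean level, the 120 lowest genes had a median log2 fold change of −0.38, the next 119 one of −0.50 and the 120 highest one of −0.66, with 20.8%, 58.8% and 84.2% of genes called lower. Higher genes also had more UMIs, and the fit used a prior count of 2, which draws fold changes at low counts toward 0. The parts of depth and of the prior count in this order were not tested.

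Ribosomal protein genes of the Z chromosome showed how far genes of 1 function could differ. All 4 that were tested were lower in females in 6 of 6 libraries, beside 58.2% of all Z-linked genes and 80.0% of the 120 with the highest levels. RPL17, a protein of the large subunit, was at 2687, 2934 and 2727 CPM in female cells of nasal HH15, HH18 and HH22 and at 2358, 3029 and 2605 CPM in those of somite HH12, HH15 and HH20. In male cells it was at 5440, 5489, 5226, 4744, 5826 and 5567 CPM in the same order, with no overlap between the sexes. Its log2 fold change was −0.98 ± 0.03 (SE, n = 6; edgeR adjusted p = 1.7e-15), a ratio of 0.506. RPS23 of the small subunit had a ratio of 0.561 (log2 −0.83 ± 0.03, edgeR adjusted p = 4.2e-15), and RPS6, a phosphorylated protein of the small subunit, had a ratio of 0.580. RPL37 stood apart from these 3, at 5417 to 6528 CPM in females and 6202 to 8521 CPM in males, ranges that overlap (log2 −0.28 ± 0.03, edgeR adjusted p = 2.4e-07).

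The Z copies of gametologue pairs were also lower in female cells. Of 26 genes on the list of pairs used here, 11 matched a deposited gene. Z copies under other symbols, such as SMAD2Z and ATP5A1Z (log2 −0.83 and −0.82, both called lower), were not counted. Of 9 Z copies on the list that were tested, 8 were called lower, leaving aside the unresolved UBAP2. This stands beside 54.6% of all Z-linked genes called lower and 84.2% of the 120 with the highest levels, and no difference from these shares was tested. CHD1Z, a chromatin remodeller whose W copy is widely used to sex birds, was at 32.4, 34.0 and 43.3 CPM in female cells and 62.1, 65.4 and 91.2 CPM in male cells of nasal HH15, HH18 and HH22. In somite HH12, HH15 and HH20 it was at 29.0, 31.5 and 42.7 CPM in females and 56.5, 53.7 and 72.4 CPM in males (log2 −0.90 ± 0.07, SE, n = 6; edgeR adjusted p = 1.0e-08). VCP, an ATPase that extracts ubiquitinated proteins, fell by 0.78 on the log2 scale, and SUB1, a transcriptional coactivator, fell by 0.67. BTF3, a transcription and protein-targeting factor, differed least, with 497 ± 104 CPM in females and 572 ± 82.5 CPM in males (log2 −0.21 ± 0.04, edgeR adjusted p = 0.0011).

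For spindlin, the counts of both copies could be added. The Z copy SPIN1Z was at 24.2 ± 5.82 CPM in females and 38.6 ± 5.89 CPM in males (SD, n = 6), a ratio of 0.627 of the means. Adding SPIN1W brought the female total to 36.4 ± 7.08 CPM against 39.0 ± 6.10 CPM in males, a ratio of 0.934. The total stayed lower in females in 6 of 6 libraries. The Z counterpart of the gene that called the sexes, chPKCI, a HINT1 relative, was at 434 to 631 CPM in females and 728 to 1105 CPM in males (log2 −0.79 ± 0.03, edgeR adjusted p = 1.6e-13). How reads that both copies share entered the counts was not tested, so the size of differences between gametologues is uncertain.

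**Figure D3:**
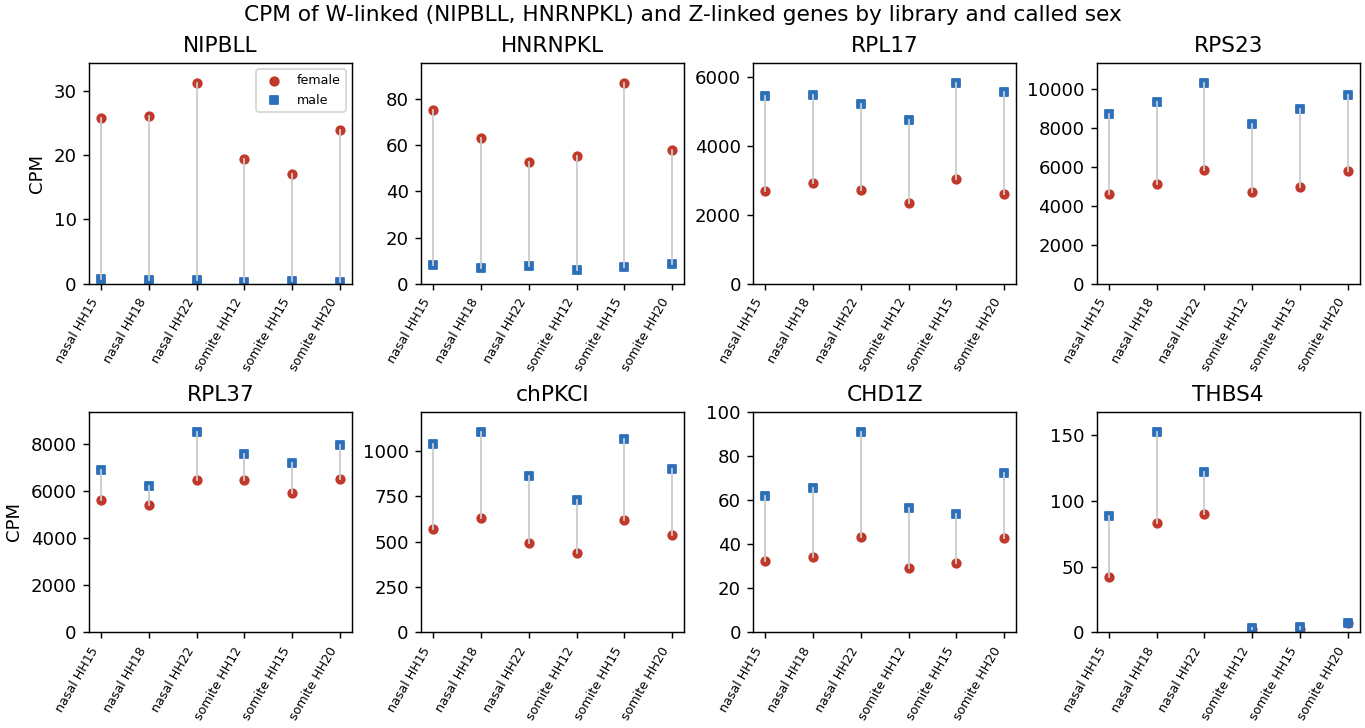
CPM (vertical axes, from 0) of 2 W-linked and 6 Z-linked genes in the 6 libraries (horizontal axes), with female cells as red circles, male cells as blue squares and a grey line joining the pair of a library. RPL17 and CHD1Z lie lower in females in every library with no overlap, RPL37 overlaps between the sexes, and THBS4 is near 0 in the somite libraries.

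The remaining Z-linked genes chosen by level and direction had log2 fold changes of −1.14 to −0.86. GRHPR, a glyoxylate reductase, was at 11.1 ± 4.37 CPM in females and 24.6 ± 5.90 CPM in males (log2 −1.14 ± 0.12, SE, n = 6; edgeR adjusted p = 7.9e-07). ALDH7A1, an aldehyde dehydrogenase of lysine breakdown, was at 46.6 to 61.5 CPM in females and 90.6 to 140 CPM in males, without overlap (log2 −1.04 ± 0.06, edgeR adjusted p = 1.5e-10). NUDT2, a nucleotide hydrolase, SPTLC1, a subunit of the first enzyme of sphingolipid synthesis, MRPS30 of the mitochondrial ribosome, NUP155 of the nuclear pore and HDHD2, a predicted phosphatase, had log2 fold changes of −0.94 to −0.92. SRFBP1, WDR36, which acts in ribosome assembly, and PLAA, a ubiquitin-binding partner of VCP, were between −0.90 and −0.86. All 12 genes of this selection, CHD1Z and RPL17 included, were lower in females in 6 of 6 libraries, as the rule required.

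The only Z-linked gene called higher in females was NLN, the neuropeptide-cleaving enzyme neurolysin, which was too low for the naming rule and was picked out after its values were seen. It was at 11.6, 9.47 and 6.93 CPM in female cells of nasal HH15, HH18 and HH22 and at 6.99, 8.50 and 8.55 CPM in those of somite HH12, HH15 and HH20, against 5.87, 5.30, 6.26, 4.89, 6.14 and 4.20 CPM in male cells. The log2 fold change was 0.66 ± 0.17 (edgeR adjusted p = 0.018), from 208 female and 173 male UMIs. Without nasal HH15, nasal HH18 or somite HH20 it no longer passed the threshold.

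Developmental regulators of the Z chromosome are read beside the 54.6% of all Z-linked genes tested that were called lower, and no difference from that share was tested. The share depended on level, with 20.8% of the 120 lowest and 84.2% of the 120 highest Z-linked genes called lower. The 6 transcription factors below are the tested members of a list. Others on the Z chromosome were called lower, such as SMAD2Z and ZNF131, or not called, such as ZNF367 and ZNF462. Mean levels of the 6 listed transcription factors were 2.87 to 33.7 CPM in either sex. All 6 had lower means in females and none was called, with a median log2 fold change of −0.34. SETBP1, a DNA-binding protein, came closest, at 20.7 ± 5.92 CPM in females and 27.0 ± 8.69 CPM in males (edgeR adjusted p = 0.073). Of 14 listed signalling genes that were tested, 3 were called lower, none higher, and the median was −0.36. LIFR, the leukemia inhibitory factor receptor, was at 25.8, 28.6 and 24.3 CPM in female cells of nasal HH15, HH18 and HH22 against 38.1, 37.8 and 34.3 CPM in male cells, and at 5.37, 13.2 and 18.8 against 10.1, 20.4 and 37.1 CPM in somite HH12, HH15 and HH20 (log2 −0.57 ± 0.10, SE, n = 6; edgeR adjusted p = 0.00051). FGF10, a growth factor of limb and lung outgrowth, had only 93 female and 229 male UMIs (log2 −0.69 ± 0.20, edgeR adjusted p = 0.046), and SEMA6A, an axon guidance ligand, had a log2 fold change of −0.46 ± 0.12 (edgeR adjusted p = 0.022). FGF10 kept its call only without somite HH12 when libraries were left out in turn, and SEMA6A lost it without nasal HH18, somite HH12 or somite HH15. PTCH1, the Hedgehog receptor, was at 14.1 ± 8.53 and 15.9 ± 7.10 CPM and was not called.

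Of 7 listed extracellular matrix genes of the Z chromosome that were tested, 5 were called lower and none higher. This stands beside 54.6% of all Z-linked genes called lower. The 7 had a median log2 fold change of −0.47. VCAN, the large proteoglycan versican of early mesenchyme, was at 125, 176 and 234 CPM in female and 162, 213 and 290 CPM in male cells of nasal HH15, HH18 and HH22. In somite HH12, HH15 and HH20 it was at 79.5, 48.8 and 95.7 CPM in female and 94.8, 58.1 and 110 CPM in male cells. It was thus lower in females in each library while the ranges of the sexes overlapped widely (log2 −0.28 ± 0.05, edgeR adjusted p = 0.00042). FBN2, a microfibril protein, fell by 0.70 and the link protein HAPLN1 by 0.47 on the log2 scale, a call that was lost without somite HH15. THBS4, a thrombospondin, was at 41.8, 83.4 and 90.2 CPM in female and 88.2, 153 and 122 CPM in male cells of the nasal libraries and at 2.20 to 7.41 CPM in all somite sums, so its call (log2 −0.77 ± 0.10, edgeR adjusted p = 1.6e-05) rests on the nasal libraries. The protease gene ADAMTS12 was called at 4.69 ± 2.12 against 8.20 ± 3.96 CPM (edgeR adjusted p = 0.030), and lost its call without nasal HH18, nasal HH22, somite HH12 or somite HH15. EGFLAM was at 5.99 CPM in females and 4.26 CPM in males and was not called.

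Of 11 genes of gonadal sex determination found in the files, 4 passed the filter on low counts, at mean levels of 4.75 to 76.1 CPM in either sex. None of these 4 was called, beside 3.32% of all genes tested, and their log2 fold changes were −0.08 to 0.36. DMRT1 had 12 UMIs in all female cells and 10 in all male cells, AMH 0 and 1, and CYP19A1, the estrogen-synthesizing aromatase, none in either sex. FOXL2 had 24 and 75 UMIs, GATA4 0 and 11, NR5A1 5 and 9, and ESR1 1 and 2. The totals behind these counts were unequal, at 22138291 female and 32661022 male UMIs. All these genes fell below the filter on low counts, so no difference in them was tested.

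In the order of the deposited gene list, lower expression in females extended along the whole Z chromosome. The genes were divided into 14 consecutive blocks of 25 tested genes and a last one of 9. The block medians ranged from −0.71 to −0.29, all below 0. The block from PUM3 to PIP5K1B had the median nearest 0, with 7 of 25 genes called lower. The block from SLC12A2 to AK6 had the lowest median, with 21 of 25 called. Genes without a chromosome in the annotation that stood between Z-linked genes gave like values: 59 of 59 had a negative fold change and 33 (55.9%) were called lower, with a median of −0.53. The strongest difference among these, a log2 fold change of −3.56, belonged to an unnamed gene. ENSGALG00000017706 was at 15.6 to 24.6 CPM in females and 36.9 to 43.6 CPM in males, with no overlap.

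**Figure D4:**
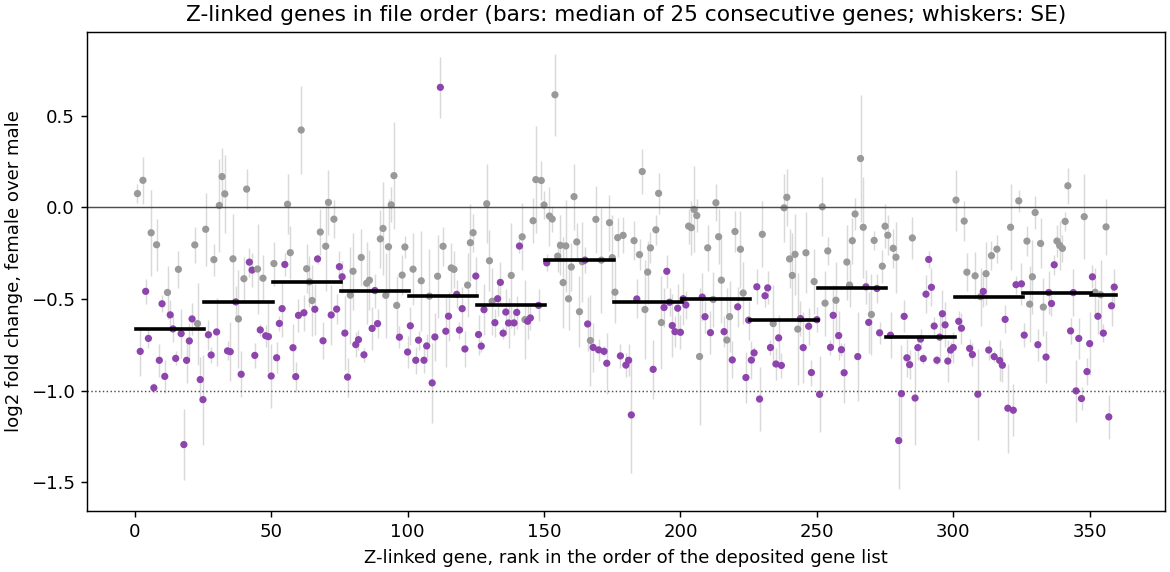
Log2 fold change of female over male cells with its SE (vertical axis) for the 359 tested Z-linked genes in the order of the deposited gene list (horizontal axis, rank), with called genes in purple, the median of consecutive blocks as black bars and a dotted line at −1. All block medians lie between −0.71 and −0.29, and NLN is the purple point above 0.

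Within cells carrying a UMI of 1 marker gene, Z-linked medians were between −0.62 and −0.51. In PDGFRA-positive cells, which include mesenchyme, 444 female and 801 male cells left 131 Z-linked genes testable, of which 46 were called lower, none higher, and the median was −0.51. In SOX2-positive cells, a neural marker, 62 of 120 were called lower with a median of −0.62. In EPCAM-positive cells, an epithelial marker, 57 of 134 were called lower, also with a median of −0.62. The same genes had medians of −0.62, −0.65 and −0.62 over all cells. These groups overlap with the full comparison and with each other, and no test between them was made.

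Nasal and somite libraries were asked whether the sexes differed by location. No gene of 9062 (0.0%) passed an adjusted p of 0.05 for the difference in edgeR's test of the sex by location term, 423 had an unadjusted p under 0.05, and DESeq2 called 0 as well, with 55 at an unadjusted p under 0.05. Fitted alone, the 3 nasal libraries called 140 Z-linked genes lower and none higher (median −0.51), and the 3 somite libraries 122 lower and none higher (median −0.52). With 3 libraries per location that also differ in stage, small differences between locations were not detectable.

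Autosomal genes differed rarely. The 20 autosomal genes called lower included the globins HBZ, HBA1, HBM and HBE1, SLC4A1, the anion exchanger of the red cell membrane, and H1F0, a linker histone. Both genes named HBBR, an embryonic beta-type globin without a unique chromosome in the annotation, were called lower too. In all, 6 of 7 globins tested were called lower, beside 2.79% of all genes tested, with a median log2 fold change of −1.02. HBZ was at 2225, 3728 and 10530 CPM in female and 2279, 6997 and 55483 CPM in male cells of nasal HH15, HH18 and HH22. In somite HH12, HH15 and HH20 it was at 5.37, 1677 and 12205 CPM in female and 56.7, 3244 and 17265 CPM in male cells (log2 −1.02 ± 0.20, SE, n = 6; edgeR adjusted p = 0.0027). The log2 ratio of female to male CPM, each plus 1, was −0.03 in nasal HH15. It was −2.40 in nasal HH22, where HBZ levels were among the highest, and −3.18 in somite HH12, where they were lowest. The summed level of 4 blood markers ranged from 11.0 to 19113 CPM over the female sums and from 110 to 74358 CPM over the male sums. In bulk sums of this kind, fewer cells of a type and less RNA per cell cannot be told apart.

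Globin-rich cells were unequally divided between the called sexes. Cells with more than 10% globin UMIs made up 1.24% of female cells (83 of 6684) and 3.09% of male cells (286 of 9257), and 13.5% of the cells between the limits (49 of 363). The share was lower in females in 6 of 6 libraries, by 2.79 percentage points on average (exact sign-flip permutation test over n = 6 libraries, p = 0.03125, the smallest p possible; 0.1875 adjusted over 9 measures). Since globin counts toward the total by which WPKCI-7 was divided, the sex was also called on UMIs other than globin: 95 cells changed their call, among them 48 globin-rich cells that moved from between the limits to female and 46 that moved out of the male group. The HBZ difference was then −0.29 ± 0.13 (edgeR adjusted p = 0.41). Without the cells over 10% globin it was 0.02 ± 0.04 (edgeR adjusted p = 0.95), but that filter removes cells by their globin, so a smaller globin difference follows from its construction. HBA1, HBM, both HBBR genes and H1F0 lost their calls under both treatments, and 193 of the 197 Z-linked calls were kept under each. Among cells chosen by other genes, the HBZ difference was −2.07 ± 0.14 in PDGFRA-positive cells (edgeR adjusted p = 2.8e-16), −1.23 ± 0.35 in EPCAM-positive cells (edgeR adjusted p = 0.069) and 0.18 ± 0.08 in SOX2-positive cells (edgeR adjusted p = 0.35). In SOX2-positive cells, HBM (0.43 ± 0.11, edgeR adjusted p = 0.0038) and 1 HBBR gene (0.34 ± 0.10, edgeR adjusted p = 0.030) were called higher in females. The part of the globin-rich cells in these values was not tested.

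**Figure D5:**
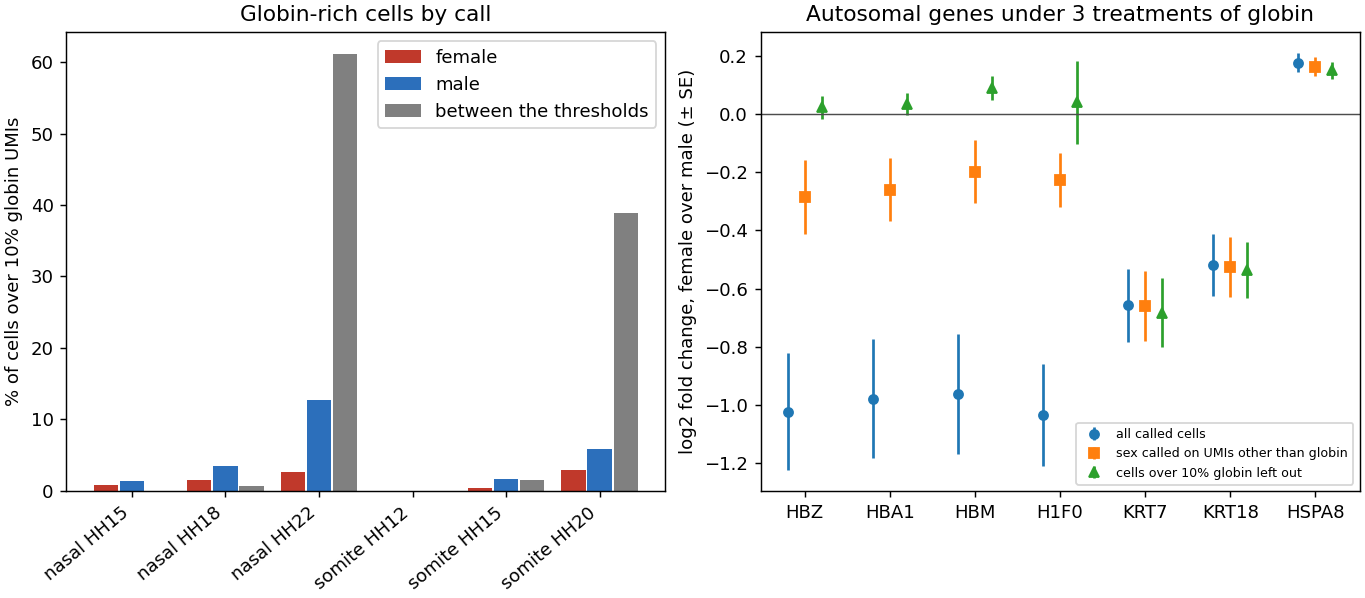
Left, percentage of cells with more than 10% globin UMIs in female, male and uncalled cells of each library. Right, log2 fold change of female over male cells with its SE for 7 autosomal genes under 3 treatments of globin: the globins and H1F0 move from about −1 to about 0 when globin-rich cells are left out, which for the globins follows from the filter, and KRT7, KRT18 and HSPA8 stay where they were.

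Other autosomal differences were small or uneven across libraries. KRT7 and KRT18, keratins of simple epithelia, were lower in females (log2 −0.66 ± 0.13 and −0.52 ± 0.10, SE, n = 6; edgeR adjusted p = 0.0018 and 0.0036). KRT7 was at 29.8 against 14.0 CPM in male and female cells of nasal HH15, 125 against 63.4 in somite HH12 and 138 against 92.0 in somite HH15, but at 10.6 against 12.6 CPM in nasal HH18. EPCAM and CDH1, the other surface ectoderm markers, were not called (log2 −0.09 and −0.22), and the summed level of the 4 markers was 19.4 to 335 CPM in female and 28.1 to 523 CPM in male sums. The part of epithelial cell numbers in the keratin values was not tested. RPL22L1, a ribosomal protein paralogue, was 1755 to 2105 CPM in females and 2040 to 2397 in males (log2 −0.15 ± 0.03, edgeR adjusted p = 0.0069), and JUN, an immediate early gene, was at 43.2 ± 18.8 and 55.3 ± 19.7 CPM (log2 −0.35 ± 0.09, edgeR adjusted p = 0.019). The KRT18 call was lost without somite HH12 and that of JUN without nasal HH15.

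The 24 autosomal genes called higher in females had log2 fold changes between 0.16 and 0.72. Scaling on autosomal genes only kept 30 of the 44 autosomal calls. Over all genes it gave 33 calls higher in females, against 48. COQ9, of ubiquinone synthesis, was at 28.7, 27.0 and 43.9 CPM in female and 24.7, 22.1 and 33.1 CPM in male cells of nasal HH15, HH18 and HH22, and at 51.6, 36.8 and 49.0 against 40.7, 25.6 and 31.1 CPM in somite HH12, HH15 and HH20 (log2 0.39 ± 0.08, edgeR adjusted p = 0.0052). It was higher in females in each library, while the ranges of the sexes overlapped. FZD7, a Wnt receptor, had a log2 fold change of 0.42 ± 0.11 (edgeR adjusted p = 0.024) and the chaperones HSPA8 and HSP90AA1 0.18 ± 0.03 and 0.16 ± 0.04 (edgeR adjusted p = 0.0016 and 0.025). HSP90AA1 was higher in 5 of 6 libraries. SOX10, the neural crest and glial factor, was higher in 4 of 6 (log2 0.51 ± 0.14, edgeR adjusted p = 0.040). Of the 44 autosomal calls, 13 held when each library in turn was left out, against 154 of 197 Z-linked calls. The 13 were HBZ, HBA1, HBM, HBE1, SLC4A1, H1F0, SLC25A37, TSPO2, KRT7, LARP1B, RPL22L1, COQ9 and HSPA8. Of these, HBZ, HBA1, HBM and H1F0 lost their calls under both treatments of globin. No value under these treatments is given here for HBE1 and SLC25A37. SLC4A1 lost its call with the sex called on UMIs other than globin (log2 −0.16, edgeR adjusted p = 0.76). It had no value without the cells over 10% globin. TSPO2 changed sign under both treatments, to 0.0800 with that sex call and 0.26 without the cells over 10% globin. FZD7 and SOX10 lost theirs without nasal HH15 or any 1 of the somite libraries, and HSP90AA1 without any 1 of the somite libraries. DESeq2 called 8 autosomal genes, 7 of them among the 44, and kept 146 of the 197 Z-linked calls. Among genes without a chromosome, ENSGALG00000014589, a gene without a name, was at 70.9 to 113 CPM in females and 55.3 to 89.4 CPM in males (log2 0.39 ± 0.06, edgeR adjusted p = 0.00019).

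Lists of cell state and position are read beside the 3.32% of all genes and 0.589% of autosomal genes that were called. No difference from these shares was tested, and lists this short would hold few calls at such shares. None of 13 cell cycle genes and none of 18 HOX genes was called, with medians of 0.03 and 0.02. Of 7 tested genes of dissociation stress, HSPA8 and HSP90AA1 were called higher and JUN lower. No mesenchyme (4), neural (4) or endothelium (1) marker was called. The share of PDGFRA-positive cells was 6.83 ± 1.85% in females and 8.42 ± 2.10% in males, and that of SOX2-positive cells 6.80 ± 1.50% and 5.52 ± 1.53% (SD, n = 6; exact sign-flip permutation test, p = 0.0625 and 0.1875 adjusted for each), so neither difference passed the test.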

How the data were processed

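The authors deposited UMI counts per gene and cell barcode for 6 Chromium libraries, made with Cell Ranger on GRCg6a with 3′ ends of genes extended, and not normalized. Barcodes and features are names. Cells were filtered on UMIs, mitochondrial share and Scrublet doublet score in scanpy 1.11.5, which left 16304 of 17268 barcodes. Sex was called as described above, and UMIs were summed per library and sex without WPKCI-7. The 12 sums were fitted in edgeR 4.0.16 (R 4.3.3), with TMM scaling, filterByExpr, a prior count of 2, the library as a block, a quasi-likelihood test across all genes and Benjamini-Hochberg adjustment. The sums of 1 library pair by construction, and their deviations from the sex means correlated at 0.71 to 0.81. CPM use the TMM-scaled totals. The fitting code was tested on simulated data. SDs are over 6 libraries. The SE of an edgeR log2 fold change was derived from the test statistic and the fold change without the prior count. The printed edgeR fold changes include the prior count, and n is the number of libraries fitted. With the library as a block, p-values measure the spread of the difference between the sexes across libraries of different stage and place, not the spread of levels between libraries.

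Chromosomes came from RefSeq's GRCg7b gene table, matched by symbol or synonym: 11958 of 16828 genes were placed, 551 on Z and 5 on W. The table is of another build, so no coordinates are given. In the deposited gene order, 99.2% of neighbouring placed genes shared a chromosome. Genes reaching 20 CPM on average in 1 sex and moving the same way in 6 of 6 libraries were named by size of change, up to 10 W-linked, 12 Z-linked and 10 per direction elsewhere, besides members of gene lists. The members and lists were chosen with earlier results of these data known. Alternatives were DESeq2 1.42.0, other scaling, filters, sex limits, cell subsets and leaving out each library. The SOX2-positive and EPCAM-positive subsets, the limit of 10% globin and the sex call on UMIs other than globin were chosen after seeing the data.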

Additional observations from a re-analysis of the deposited data

Results flagged for a closer look

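In 76 values (genes named in the text and cell measures), the 6 libraries were searched for 1 that stood apart, and 6 did, or 7.89%, where chance gives about 1 in 20. HAND2, a heart and arch mesenchyme factor, had a log2 ratio of female over male CPM, each plus 1, of −3.59 in nasal HH22. This came from 0 CPM in females and 11.0 in males. HAND2 was called over all libraries (log2 −0.90 ± 0.23, edgeR adjusted p = 0.022), a call lost without somite HH12 or somite HH20. KRT7 had a log2 ratio of 0.23 in nasal HH18 while it was negative in the other 5 libraries. ENSGALG00000014589 reached 0.64 in somite HH20, and ENSGALG00000026300, an unplaced gene between Z-linked genes, reached −1.21 in somite HH15. Cell shares stood apart in nasal HH22: female cells exceeded male cells by 7.08 percentage points in the share over 1% globin and fell below them by 10.1 points (−10.1) in the share over 10% globin.

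The 363 uncalled cells entered no comparison. The W-linked HNRNPKL, NIPBLL and SPIN1W together were at 27.0 CPM in them, from 36 UMIs, above the 7.84 CPM of male cells and below the 105 CPM of female cells. By library their level ranged from 0 CPM in somite HH12 to 57.8 CPM in nasal HH15, the latter from 5 UMIs. Nasal HH22, where 61.1% of the uncalled cells had more than 10% globin UMIs, gave 18 of the 36 UMIs (37.4 CPM). Nasal HH18, with 157 of the cells, was at 12.6 CPM, against 8.58 CPM in its male cells.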

How the results depend on the processing

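The 301 calls (48 higher, 253 lower in females; 197 Z-linked, 44 autosomal) and the Z-linked median of −0.51 were recomputed under each alternative. Counts were 196 in all, 25 higher and 8 autosomal with DESeq2 (Z median −0.54), and 101, 18 higher, 83 lower, 70 Z-linked and 0 autosomal (edgeR; 35 at an unadjusted p under 0.05) with no replicate block. Without the filter on low counts, 78 were higher and 94 autosomal (Z median −0.45). Scaling on autosomal genes gave 33 higher and a Z median of −0.54. Limits of 60 and 5 UMIs per 10000 gave 75 autosomal calls. Sums thinned to equal totals gave 30 higher. Leaving out cells over 1% or 10% globin gave 25 and 29 autosomal calls. PDGFRA-positive cells gave 66 calls (8 higher, 58 lower, 46 Z-linked, 7 autosomal), SOX2-positive cells 97 (21, 76, 62 and 19, Z median −0.62) and EPCAM-positive cells 74 (8, 66, 57 and 4, Z median −0.62), with fewer cells and genes by construction. Nasal libraries alone gave 194 (25 higher, 11 autosomal), and somite libraries alone 167 lower and 122 Z-linked. Leaving out each library gave 263 to 286 calls, 29 (without somite HH15) to 47 higher, 226 to 249 lower, 167 to 190 Z-linked, 30 to 49 autosomal and Z medians of −0.52 to −0.51. The sex by location term called 21 genes without the filter, 2 in SOX2-positive cells, 0 to 2 without single libraries and 0 otherwise. Other causes of these shifts were not tested.

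Of 1574 values of 67 genes under alternatives, 1360 kept direction and side of the threshold, 191 lost their call, 5 (all SETBP1) gained one, and 18 changed sign, all of blood genes. Without cells over 10% globin the log2 fold changes were 0.0395 and 0.0162 for the HBBR genes, 0.0226 for HBZ, 0.0329 for HBA1, 0.0884 for HBM, 0.0388 for H1F0 and 0.26 for TSPO2. Without cells over 1% globin they were 0.00871 for 1 HBBR gene, 0.00554 for HBZ, 0.0407 for HBA1, 0.0587 for HBM and 0.19 for TSPO2. In SOX2-positive cells they were 0.23 and 0.34 for HBBR, 0.18 for HBZ, 0.26 for HBA1 and 0.43 for HBM. Of these, the HBBR gene at 0.34 and HBM were called higher in females (edgeR adjusted p = 0.030 and 0.0038). The values were −2.38 and −2.65, −2.07, −1.67 and −2.27 in PDGFRA-positive cells, each still called. In EPCAM-positive cells they were −1.29 and −1.30, −1.23, −1.04 and −1.48, none called (edgeR adjusted p = 0.054 to 0.17). TSPO2 was at 0.0800 with the sex called on UMIs other than globin.

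No composition measure passed the test, which says nothing of their stability, since 6 libraries allow no p under 0.03125 before adjustment and 5 libraries none under 0.05. Signs changed for small differences: EPCAM-positive cells by 0.161 points with at least 2000 UMIs, CDH5-positive cells by −0.0131 with doublets kept and −0.0116 with 1 limit of 30, cells over 1% globin by −0.00622 with limits of 60 and 5, genes per cell by 1.92 with doublets kept and 4.50 with 1 limit, and mitochondrial percent by −0.0418 with limits of 60 and 5 and −0.0662 with at least 2000 UMIs. Without single libraries these ranged from −0.601 to 0.436 (EPCAM), −0.0844 to 0.102 (CDH5), −1.04 to 0.741 (over 1% globin), −13.0 to 10.7 genes and −0.0794 to 0.149 percentage points of mitochondrial UMIs.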
